A study of Ginkgo biloba with 2 samples.

Results

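Predicted miRNA target genes of Ginkgo biloba whose best protein match is an enzyme or protein of chlorophyll, carotenoid, isoprenoid, flavonoid, phenylpropanoid or lignan metabolism, or a cytochrome P450, were described together with the miRNA names listed for them. They were found by keywords in the match description of the authors' target table and numbered 39 of 2713 target genes. Of all target genes 2031 had a protein match, so the 39 genes were 1.92% of the matched ones. They comprised 4 genes of the chlorophyll keywords, 2 of the carotenoid and isoprenoid keywords, 13 of the flavonoid keywords, 2 of the phenylpropanoid and lignan keywords and 18 cytochromes P450. The table listed 29 miRNA names for them in 46 gene-name pairs.

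Small RNA was counted in 1 library of normal green leaves, with 2084893 reads over all miRNA names, and 1 library of mutant yellow leaves of a gold-coloured mutant, with 2793966 reads. Per the labels both kinds of leaf came from an adult tree, the mutant leaves were striped yellow and green, and the extraction text names cambium although the tissue label is leaf. The yellow library may therefore hold green tissue, and no source used here says whether leaves were pooled. With 1 library per leaf type no test between leaf types was possible. Target mRNA was not analysed here, so every statement below concerns the level of a miRNA and a predicted pairing, not the level of a target gene.

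Leaf colour depends on the balance of green chlorophylls, made from porphyrin precursors and broken down through reductases and oxygenases, and yellow carotenoids, made from geranylgeranyl diphosphate. Flavonoids are made from phenylalanine through chalcones, and branch into flavonols, catechin-type flavanols and red to blue anthocyanins. Ginkgo leaves are known for flavonol glycosides and for diterpene lactones, and cytochromes P450 carry out many oxidations in these and in hormone pathways. A plant miRNA pairs with near-complementary mRNA and usually causes its cleavage.

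The names listed for these genes ranged from abundant to barely detected. Levels, as CPM of the column total, reached 4396 (green) and 8136 (yellow) for zma-miR396g-3p, while 7 of the 29 names had no more than 3 reads in both libraries together. Only 15 names, or 51.7%, had at least 20 reads, against 268 of 413 names with targets in the count table, or 64.9%. The median over both libraries together was 21 reads for the 29 names and 61 reads for the 413. At least 1 name with 20 reads was listed for 20 of the 39 genes, or 51.3%, against 1599 of 2713 target genes, or 58.9%. For 11 genes every listed name had at most 3 reads. A single name was listed for 36 of the 39 genes, or 92.3%, against 74.2% of all target genes, so a gene's entry usually rested on 1 miRNA.

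**Figure D1:**
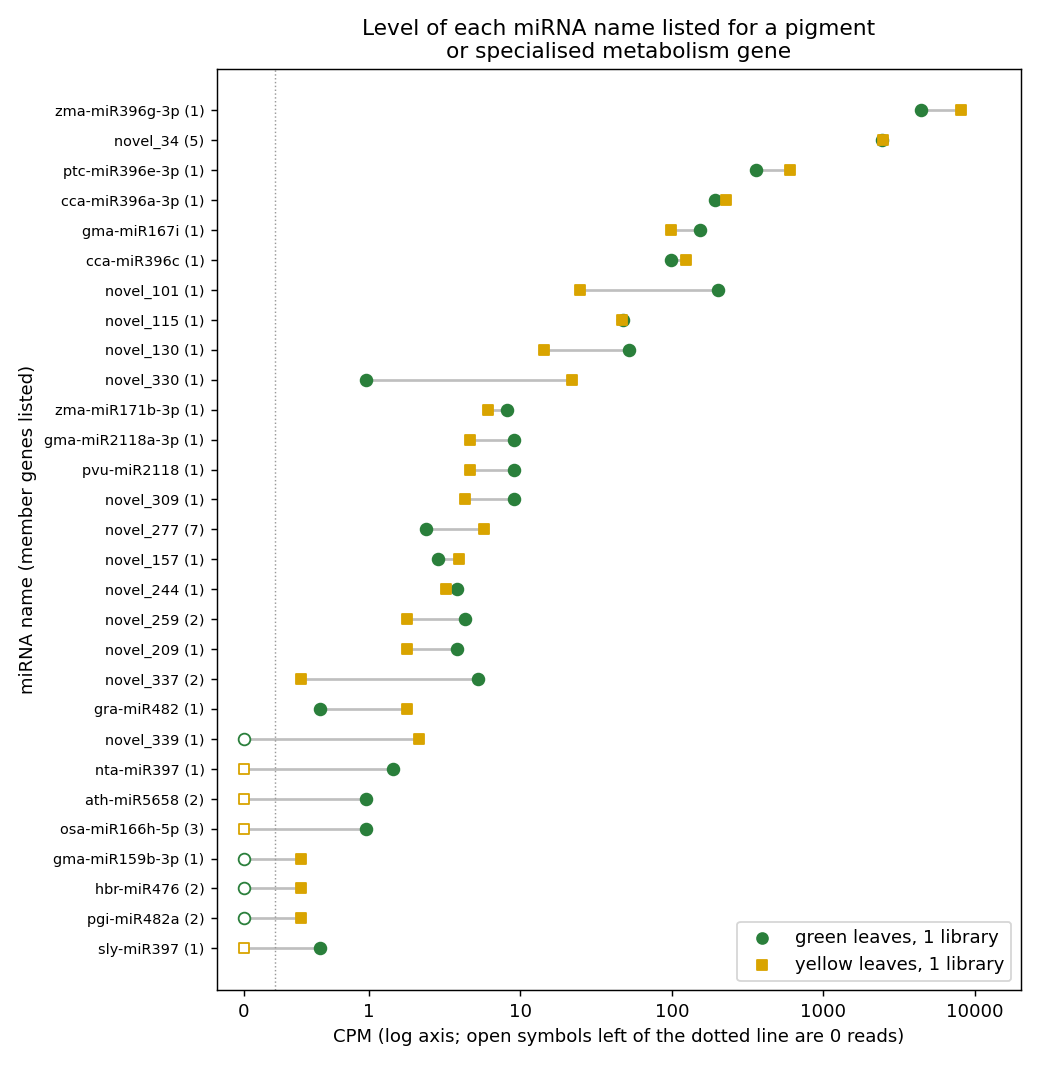
Level of each of the 29 miRNA names in the green library (circles) and the yellow library (squares) in CPM on a log axis, with the number of pigment and specialised metabolism genes listed for the name in parentheses. Open symbols mark 0 reads, and the names run from zma-miR396g-3p, at 4396 (green) and 8136 (yellow) CPM, down to names with 1 read.

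A name was called higher or lower in yellow leaves when it had at least 20 reads, a 2-fold or larger difference and a 95% exact interval that left out 1. The interval covers counting error only and compares these 2 libraries. By this rule 2 of the 15 names, or 13.3%, were lower in yellow leaves, where the background over all 306 names with at least 20 reads was 24.8%. A single name of the 15, or 6.67%, was higher, where the background was 12.1%. Both shares stood below the background, on few names. The lower names were novel_101 and novel_130 and the higher name was novel_330, all of them miRNAs that carry only a number from the authors. The median log2 ratio of the 15 names was -0.03, beside -0.45 over the 304 names with at least 20 reads and reads in both libraries. By median-of-ratios scaling these medians were 0.39 and -0.03. The size factors estimated for that scaling were 1 and 1, so its ratios equal those of the raw read counts.

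On the level of genes, 2 of the 20 genes with a name of at least 20 reads were listed for a lower name, with a background of 28.6% among all 1599 such target genes. A gene listed for a higher name was found once, with a background of 17.3%. This count of higher names depended on the scaling. With median-of-ratios scaling 4 of the 15 names, or 26.7%, were higher, with a background of 19.6%, and 9 of the 20 genes, or 45.0%, were listed for one, with a background of 31.2%. The same counts of names and genes, 4 and 9, came from TMM scaling, with backgrounds of 20.9% and 31.4%, and from the total without the most-read miRNA, with 16.3% and 29.4%. The 2 lower names and the 2 genes listed for them did not change in number with the scaling, beside backgrounds of 17.6% of names and 19.6% of genes by median of ratios, 16.3% and 18.1% by TMM, and 20.9% and 23.8% without the most-read miRNA. The names added were novel_277, zma-miR396g-3p and ptc-miR396e-3p. Of the 9 genes, 7 hung on novel_277 alone among the higher names, with 21 reads.

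**Figure D2:**
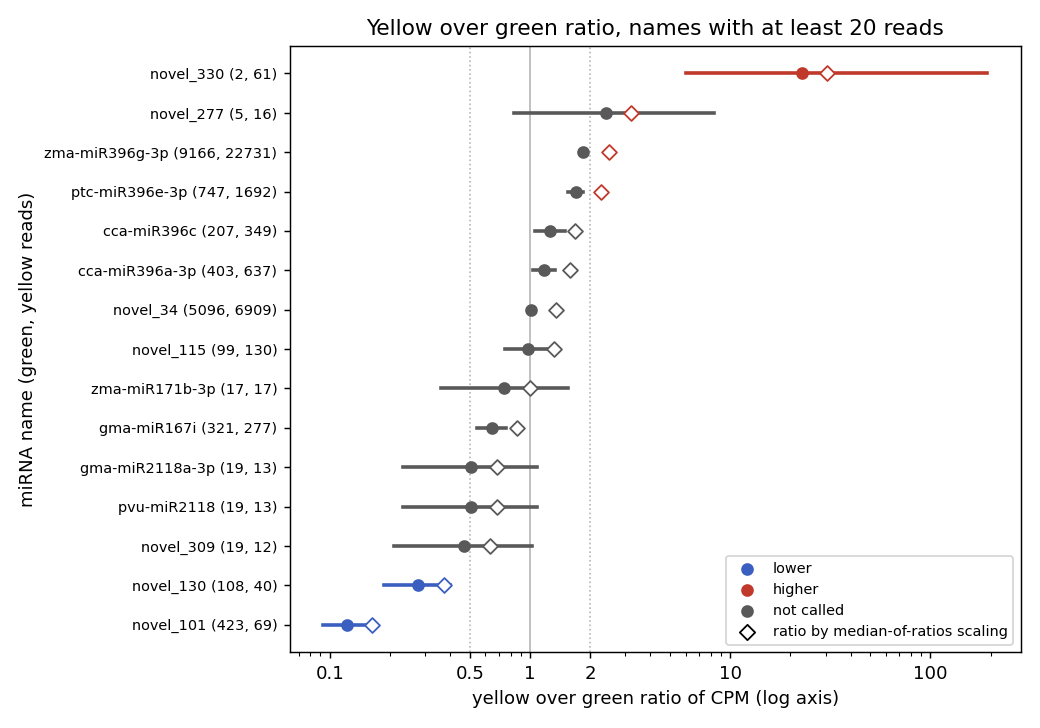
Yellow over green ratio on a log axis for the 15 names with at least 20 reads, with 95% exact intervals as bars (filled points, scaled by the column total) and the ratio by median-of-ratios scaling (open diamonds). Dotted lines mark ratios of 0.5 and 2. novel_101 and novel_130 lie below 0.5 and novel_330 above 2 under both, while the diamonds of novel_277, zma-miR396g-3p and ptc-miR396e-3p pass 2. Intervals by median of ratios are not drawn. For novel_277, zma-miR396g-3p and ptc-miR396e-3p they leave out 1, whereas the drawn bar of novel_277 holds 1.

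The chlorophyll keywords found 4 genes, of which 1 was listed for a called name. Gb_38508 matched chlorophyll(ide) b reductase NOL, which takes part in the first step of chlorophyll b breakdown, and was listed for 4 names. novel_130 had 108 green and 40 yellow reads, or 51.8 and 14.3 CPM, and was 3.62-fold lower in yellow leaves (interval 2.50 to 5.34). It was lower under each of the 4 scalings. The names gma-miR2118a-3p and pvu-miR2118 had equal counts, 19 green and 13 yellow reads, and may count the same reads. Their ratio of 0.511 had an interval of 0.232 to 1.09 that included 1. pgi-miR482a had 0 green and 1 yellow reads. Of the 4 names only novel_130 was called, and pgi-miR482a had too few reads for a call in either direction. miR482 and miR2118 are known as regulators of NBS-LRR disease resistance genes. Matches to resistance proteins made up 6 of the 10 predicted targets of novel_130 and 7 of the 13 of pgi-miR482a. They made up 12 of the 18 of gma-miR2118a-3p and 8 of the 12 of pvu-miR2118. All 12 targets of pvu-miR2118 were also targets of gma-miR2118a-3p. The share of such matches over all target genes was not computed. The number after the match of Gb_38508, which has the form of an alignment e-value although the header does not name it, was 5.55e-10. It was among the weakest of the 39 genes, of which 3 stood above 1e-10 and 30 below 1e-50.

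The other chlorophyll genes were listed for names with under 20 reads. Gb_35950 matched chlorophyllide a oxygenase, which makes chlorophyll b precursors, with a match number of 0. It was listed for novel_209, with 8 green and 5 yellow reads, and the ratio of 0.466 had an interval of 0.12 to 1.62. Gb_36694 matched the protochlorophyllide-dependent translocon component PTC52, an oxygenase-type protein of the chloroplast envelope. Its name novel_157 had 6 green and 11 yellow reads, a ratio of 1.37 (0.464 to 4.505). Neither difference was detectable at this depth. Gb_20294 matched an oxygen-independent coproporphyrinogen-III oxidase-like protein of a cyanobacterium, a family of porphyrin synthesis, and entered through the word porphyrin. Its name was ath-miR5658, with 2 green and 0 yellow reads. Both counts lie at or under the floor of 3 counts, which is 1.44 CPM (green) or 1.07 CPM (yellow), that a count of 0 allows.

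The carotenoid genes were enzymes of an early and a late step. Gb_09570 matched zeta-carotene desaturase, on the way to lycopene, and was listed for novel_277. Gb_32627 matched zeaxanthin epoxidase, which turns zeaxanthin into violaxanthin and supplies precursors of abscisic acid. Its only name was nta-miR397, with 3 green and 0 yellow reads. The miR397 family has 7 names in the count table, and its most-read, pab-miR397, had 437 green and 17 yellow reads but was not listed for this gene. Among the 7 names 2 were listed for any of the 39 genes, nta-miR397 and sly-miR397.

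The 13 flavonoid genes covered most steps from chalcone to anthocyanin and catechin. 6 of them were listed for a name with at least 20 reads, and none for a called name when scaled by the total. With the other 3 scalings 4 were listed for a higher name, which was novel_277 each time. Among all 1599 target genes with a name of at least 20 reads, that background was 31.4% by TMM and 31.2% by median of ratios. It was 29.4% without the most-read miRNA and 17.3% by the total. The 4 genes rest on 1 name with 21 reads, so they are not separate observations. Gb_07234, the match of chalcone isomerase, which closes the flavanone ring, was one of these. The others were Gb_21868, Gb_21869 and Gb_21870, which all matched leucoanthocyanidin dioxygenase, the enzyme that forms anthocyanidins. Their match numbers were 6.31e-85, 6.43e-139 and 1.17e-153, and the 3 genes carry consecutive numbers, but their positions were not analysed here.

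novel_277 was listed for 7 of the 39 genes, more than any other of the 29 names. Besides the 4 flavonoid genes and the zeta-carotene desaturase match, they were the cytochrome P450 matches Gb_16632 and Gb_41418. The name had 5 green and 16 yellow reads, or 2.40 and 5.73 CPM. Its ratio was 2.39 with an interval of 0.836 to 8.33 when scaled by the total, and 3.20 with an interval of 1.12 to 11.2 by median of ratios. At 21 reads in all, the call of higher needed 17 reads in yellow leaves when scaled by the total and 16 under each other scaling, so 1 read decided it. novel_277 had 88 predicted target genes, where the median over 414 names was 7. Of the 88, 69 had a protein match and 8 of these were transposon or retrovirus proteins. Such matches numbered 2 of 54 for novel_337, 0 of 78 for novel_244 and 0 of 95 for ath-miR5658, other names with long target lists. Their share over all matched target genes was not computed.

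Of the other flavonoid genes with a name of at least 20 reads, Gb_14028 matched flavonol synthase, which makes the flavonols for which ginkgo leaves are known. Its name novel_309 had 19 green and 12 yellow reads and was 2.12-fold lower with an interval of 0.978 to 4.79 that included 1. Gb_34237 matched an anthocyanidin 3-O-glucosyltransferase, which adds sugar to the pigment, and was listed for zma-miR171b-3p. This name had 17 reads in each library, so its ratio was 0.746 (0.358 to 1.555) by the total and 1 (0.480 to 2.08) by median of ratios. ath-miR171b-3p had the same counts and shared 4 of the 5 predicted targets of zma-miR171b-3p, but was not listed for Gb_34237.

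The remaining 7 flavonoid genes rested on names with 2 to 17 reads. Gb_15889, Gb_33746 and Gb_33754 matched leucoanthocyanidin reductase, which makes catechin-type flavanols, and were listed for osa-miR166h-5p, with 2 green and 0 yellow reads. They were 3 of the 6 predicted targets of that name. gma-miR166u, the most-read of the 25 miR166 names, had 101288 green and 91410 yellow reads and was listed for none of the 39 genes. Gb_09086 and Gb_09087 matched dihydroflavonol reductases, which supply the leucoanthocyanidins, and were listed for novel_259, with 9 green and 5 yellow reads, a ratio of 0.415 (0.109 to 1.38). Gb_12833, an isoflavone reductase-like match, was listed for novel_244, with 8 and 9 reads, a ratio of 0.839 (0.287 to 2.50). Gb_33850 matched an enzyme that adds a further glucose to anthocyanidin glucosides and was listed for gra-miR482, with 1 green and 5 yellow reads, a ratio of 3.73 (0.4175 to 176.5). None of these intervals left out 1.

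The phenylpropanoid and lignan genes had no name with 20 reads. Gb_27762 matched phenylalanine ammonia-lyase, the entry enzyme of the phenylpropanoid pathway, with a match number of 0. It was listed for gma-miR159b-3p, with 0 green and 1 yellow reads. It was the 1 name of the 22 in the miR159 family listed for any of the 39 genes, whereas the most-read, pta-miR159a, had 10683 and 25949 reads. Gb_12517 matched dirigent protein 23, of a family that steers the coupling of lignan precursors, and was listed for ath-miR5658, the name with 2 reads and 138 predicted target genes. For both genes a difference between the libraries was not detectable at this depth.

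**Figure D3:**
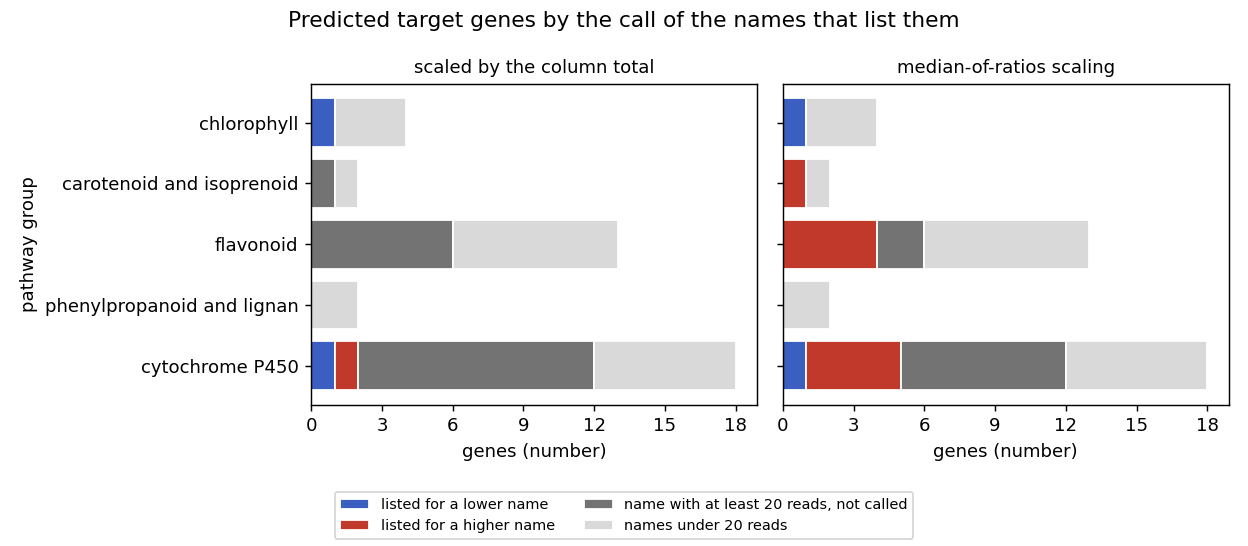
Number of predicted target genes in each of 5 pathway groups by the call of the names listed for them, scaled by the column total (left) and by median of ratios (right). Among the 18 cytochromes P450, genes listed for a higher name go from 1 to 4, among the 13 flavonoid genes from 0 to 4, while the genes listed for a lower name are the same number in both panels. Over all 1599 target genes with a name of at least 20 reads, the share listed for a higher name was 17.3% (left) and 31.2% (right). The share listed for a lower name was 28.6% (left) and 19.6% (right).

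Cytochromes P450 held the abundant names. Of their 15 names 10 had at least 20 reads, and 12 of the 18 genes were listed for one of these. A numbered miRNA, novel_34, stood out by its targets. It was listed for 5 of the genes, with 5096 green and 6909 yellow reads, or 2444 and 2473 CPM. Its ratio was 1.01 (0.976 to 1.05) by the total, 1.36 (1.31 to 1.41) by median of ratios and 1.40 (1.35 to 1.45) by TMM. It was called under none of the 4 scalings, and its interval held 1 under the total only.

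The 5 genes made up 83.3% of the 6 predicted targets of novel_34. They were Gb_13999 and Gb_15696, both matching cytochrome P450 71A1 of avocado, Gb_15693, matching cytochrome P450 750A1 of loblolly pine, Gb_38469, matching CYP736A12 of ginseng, and Gb_38470, matching a cytochrome P450 71A6 fragment of Nepeta. The sixth target, Gb_38472, matched costunolide synthase with the gene name CYP71BL2. That is a cytochrome P450 as well, which the keywords missed, so each of the 6 targets had a cytochrome P450 as its match. The next highest share among the 29 names was the 50% of osa-miR166h-5p, and the target sites of novel_34 in these genes were not analysed here.

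Among the P450 genes, 1 was listed for a lower name. Gb_32739 matched cytochrome P450 71A1 and was listed for novel_101. This name had 423 green and 69 yellow reads, or 202.9 and 24.7 CPM, and was 8.215-fold lower in yellow leaves (6.36 to 10.8). Under the other scalings its ratio of 0.122 became 0.146 to 0.168, and it was called lower under each. Gb_32739 was 1 of its 19 predicted targets.

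A further P450 gene was listed for a higher name. Gb_36689 matched cytochrome P450 720B2 of loblolly pine, of a family known in conifers for the oxidation of diterpene resin acids. The name novel_330 had 2 green and 61 yellow reads, or 0.959 and 21.8 CPM, at a ratio of 22.8 (6.04 to 192.2). The width of the interval comes from the 2 green reads. This name was called higher by the total. The other 3 scalings only raise ratios, so its call could not change under them. There it was 1 of 4 names called higher. Gb_14896, the other gene with this match, was listed for pgi-miR482a, with 0 green and 1 yellow reads.

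Gb_34499, another match of cytochrome P450 71A1, was listed for 4 names of the miR396 family, which is best known for its growth-regulating factor targets. A growth-regulating factor was not among the protein matches of the predicted targets of these 4 names. Among them zma-miR396g-3p, ptc-miR396e-3p and cca-miR396a-3p carry the label of the 3p arm. The family has 24 names in the count table, and its others, such as ath-miR396b-5p, were not examined here for this match. The absence therefore says nothing about the targets of the family as a whole. zma-miR396g-3p had 9166 green and 22731 yellow reads, a ratio of 1.85 (1.81 to 1.90). ptc-miR396e-3p had 747 and 1692 reads, a ratio of 1.69 (1.55 to 1.845). cca-miR396a-3p had 403 and 637 reads, a ratio of 1.18 (1.04 to 1.34), and cca-miR396c had 207 and 349, a ratio of 1.26 (1.056 to 1.501). All 4 ratios were above 1 under each scaling, and the first 2 passed the 2-fold limit under the 3 scalings other than the total, at 2.48 and 2.265 by median of ratios. The counts of zma-miR396g-3p were equal to those of ath-miR396a-5p, a name of the opposite hairpin arm that was not listed for Gb_34499 and shared 1 predicted target with it. Reads of zma-miR396g-3p can therefore not be assigned to an arm from the count table, and the 4 names may share reads.

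Another 2 P450 genes had a well-read name that was not called under any scaling. Gb_18384 matched cytochrome P450 87A3 of rice and was listed for gma-miR167i, with 321 green and 277 yellow reads. The ratio was 0.644 (0.546 to 0.759) by the total, and 0.863 (0.732 to 1.02) by median of ratios, where the interval held 1. Gb_12712 matched cytochrome P450 86B1, a fatty acid hydroxylase of suberin formation in Arabidopsis, and was listed for novel_115, with 99 green and 130 yellow reads. Its ratio was 0.980 (0.749 to 1.29) by the total, and 1.31 (1.003 to 1.72) by median of ratios, where the interval left out 1.

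The genes with matches of brassinosteroid metabolism fell to rarely read names. Gb_13156, Gb_23691 and Gb_41418 matched cytochrome P450 734A1, which inactivates brassinosteroids in Arabidopsis, and Gb_16632 matched cytochrome P450 724B1, of brassinosteroid synthesis in rice. Gb_41418 and Gb_16632 were listed for novel_277, and Gb_16632 for novel_337 too. The names singled out here and in the next sentences, sly-miR397, novel_339, novel_337 and hbr-miR476, were chosen after their values were seen. Gb_13156 was listed for sly-miR397, with 1 green and 0 yellow reads. Gb_23691 was listed for novel_339, with 0 green and 6 yellow reads. With the green library set to the floor of 3 counts the ratio of novel_339 was 1.49, a value that leaves out counting error. The exact interval began at a ratio of 0.879 by the total, and at 1.18 by median of ratios and 1.215 by TMM, so whether it held 1 turned with the scaling. Its 6 reads stood under the minimum for a call.

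The last P450 genes also had names with few reads. Gb_28851, a match of cytochrome P450 71A1, was listed for novel_337 as was Gb_16632. That name had 11 green and 1 yellow reads, 14.7-fold lower with an interval of 2.14 to 634.5 that left out 1, but its 12 reads stood under the minimum for a call. Gb_16632 was thus listed for a name with more reads in yellow and for one with fewer. Gb_06162, a match of cytochrome P450 71A26, and Gb_10643, a match of CYP736A12 with a match number of 2.23e-08, were listed for hbr-miR476, with 0 green and 1 yellow reads.

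Several of the names had long target lists. Among all 414 listed names 9 had at least 50 predicted target genes, and 4 of these were among the 29 names: ath-miR5658 with 138, novel_244 with 109, novel_277 with 88 and novel_337 with 73. They were listed for 11 of the 39 genes, or 28.2%, beside 24.7% of all target genes. These 4 names had from 2 to 21 reads in both libraries together. The median number of predicted targets was 13 for the 29 names and 7 for all 414. The 29 names were chosen for listing any of the 39 genes, and a longer list gives more chances of that. Their longer lists, and the 4 of the 9 longest among them, can therefore not be told apart from an effect of this choice. The called names had fewer than these 4 long lists but more than the median of 7, with 19 for novel_101, 10 for novel_130 and 34 for novel_330.

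**Figure D4:**
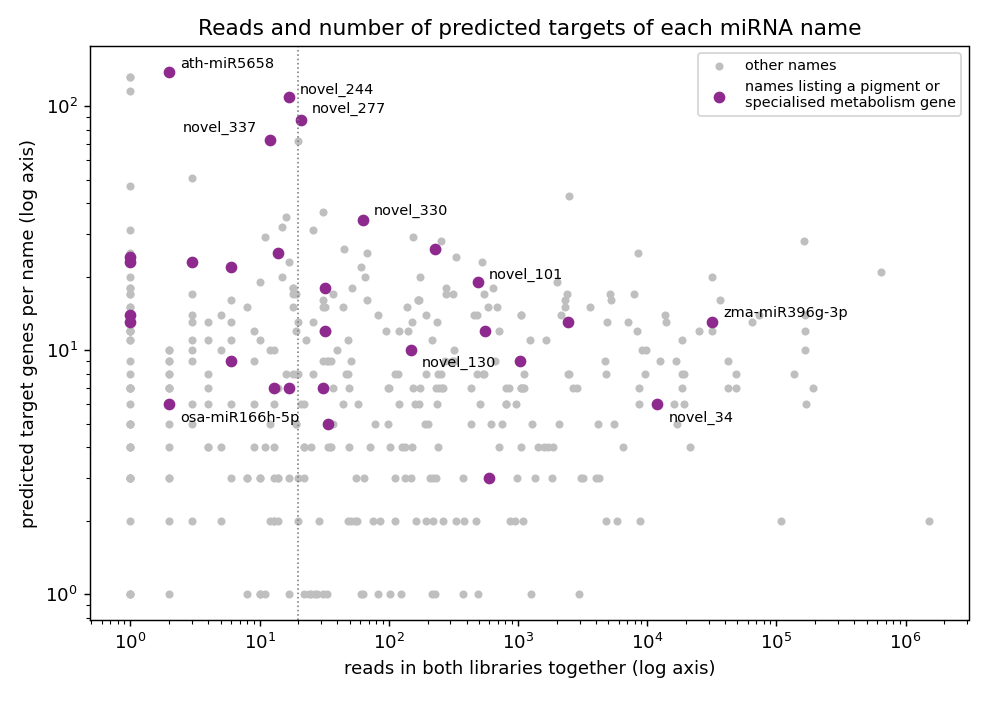
Reads in both libraries together (x, log axis) and number of predicted target genes (y, log axis) for each of 413 miRNA names with targets, with the 29 names listed for a pigment or specialised metabolism gene in purple and the minimum of 20 reads as a dotted line. ath-miR5658, novel_244, novel_277 and novel_337 sit at the upper left with 73 to 138 targets and 2 to 21 reads, and novel_34 at the lower right with 6 targets and 12005 reads.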

How the data were processed

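The authors deposited raw read counts per miRNA name in 1 green and 1 yellow leaf library, per the file headers, and a table of predicted target genes with the best protein match. The submitters' processing notes name Bowtie without a version. Genome build, counting rule and the tools that predicted miRNAs and targets: not given in the sources used here. Sequences and target sites were not analysed here.

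Genes were chosen by keywords in the match text before the organism, and grouped by pathway. The genes, groups and rules were chosen with earlier results of these data known. CPM was computed from the column total. Ratios of yellow over green have 95% exact Clopper-Pearson intervals of the yellow share. These intervals cover counting error only, since there is 1 library per leaf type. Reads lacking molecular identifiers need not be separate molecules, so even the counting error may be larger than the intervals show. A call needed 20 reads, a 2-fold ratio and an interval without 1. A library at 0 was set to a floor of 3 counts. The rule was tested on simulated counts drawn with counting error only, so that test says nothing about variation between libraries.

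Every gene was named, as was every miRNA name listed outside the P450 group. For P450 genes the called names, the 10 most-read names and names listed for 3 or more genes were named. Alternatives were edgeR 4.0.16 TMM, DESeq2 1.42.0 median of ratios (size factors 1 and 1), the total without the most-read miRNA, other read minimums and fold limits, equal counts taken once, and genes with a CYP gene name added. Python 3.11.15 with scipy 1.17.1 and R 4.3.3 were used.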

Additional observations from a re-analysis of the deposited data

How the results depend on the processing

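The 2 lower names, and the 2 genes listed for them, kept that number under each scaling, a minimum of 100 reads and a fold limit of 3. Higher names numbered 1 by the total and 4 by each of TMM, median of ratios and the total less the top miRNA, and the genes listed for them 1 and 9. The scalings multiply every ratio by 1.383, 1.34 and 1.202, which by construction only raises ratios. Without a minimum of reads 3 names were lower, and 4 genes were listed for one. With a minimum of 100 reads 0 names and 0 genes were higher. With a fold limit of 1.5 there were 3 higher names, with 2 genes, and 3 lower names, with 3 genes. With CYP gene names added, chosen after seeing the data, 2 genes were listed for a higher name. Shares over all names or target genes were not computed for these read minimums, fold limits and added genes. Those counts therefore have no background beside them. Taking equal counts once changed no count. Of 21 names with reads in both libraries, the ratio left its own interval for 8 by TMM and 8 by median of ratios. For the total less the top miRNA it did so for 6. No called ratio changed direction, but with factors of this size none of them could. Among the 15 names with at least 20 reads, ratios above 1 numbered 7 by the total. They numbered 9 by TMM and 8 by each other scaling. No paired analysis was possible because there is 1 library per leaf type. Depth limits the 14 names under 20 reads, on which 19 genes rest.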

Other observations

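Several target genes of the same kind of metabolism lay outside the keywords and are given here as values, chosen after they were seen. 7 target genes matched bifunctional levopimaradiene synthase of Ginkgo biloba itself, the diterpene cyclase at the start of ginkgolide synthesis. 6 of them were listed for names of miR395, a family best known for sulfate assimilation genes, and the name listed for each of the 6 was tae-miR395b, with 9 green and 6 yellow reads, a ratio of 0.4975 (0.146 to 1.565), which is under the minimum of 20 reads. ath-miR395a, the one miR395 name among them with at least 20 reads, was listed for 4 of the 6, with 9 green and 14 yellow reads, a ratio of 1.16 (0.468 to 3.04). Both intervals held 1. Gb_33821 was listed for ppe-miR1511-3p, with 283 green and 38 yellow reads, 9.98-fold lower in yellow leaves (7.10 to 14.4) and called lower under both the total and median of ratios. The match number was 0 for Gb_04666 and Gb_09130, 4.25e-48 for Gb_33821 and 8.11e-27 for Gb_08093. It was weaker for Gb_34459, Gb_39048 and Gb_21136, at 2.23e-10, 3.69e-10 and 7.35e-10. Gb_04951 matched pheophytinase, an enzyme of chlorophyll breakdown, and was listed for novel_277, the name of the flavonoid and carotenoid genes above.

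A CYP gene name marked 9 further target genes as cytochromes P450. Gb_21485, a match of geraniol 8-hydroxylase, was listed for novel_330, as was Gb_36689, so 2 of its 34 predicted targets were cytochromes P450. Gb_34500, a match of beta-amyrin 24-hydroxylase, was listed for the same 4 miR396 names as Gb_34499. Gb_09826 and Gb_18336, matches of an ent-kaurene oxidase-like protein, were listed for novel_43, with 4909 green and 3603 yellow reads, a ratio of 0.548 (0.5245 to 0.572). Gb_20775, a match of ent-kaurene oxidase, was listed for novel_43 too, and Gb_38576, with the same match, for novel_339. Neither was among the 9, so a CYP gene name does not find every gene of this kind. Gb_08043 matched taxadiene synthase and was listed for novel_113, with 6 green and 20 yellow reads, a ratio of 2.49 (0.963 to 7.57) that was not called by the total and was called higher by median of ratios. novel_113 shared 9 of the 19 predicted targets of novel_101, the name that was 8.215-fold lower in yellow leaves, but it was not listed for Gb_32739.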
